A study of Mus musculus with 12 samples.

Results

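Fibroblast growth factor (FGF) and leukaemia inhibitory factor (LIF) signalling was followed in mouse embryonic stem cells through 10 genes: the FGF ligands Fgf4, Fgf17 and Fgf5, the receptor Fgfr1, the phosphatases Dusp1 and Dusp6, the LIF receptor chains Lifr and Il6st, the transcription factor Stat3 and the inhibitor Socs3. They were taken by name, with earlier results of these data known. Every probe set that the MG_U74Av2 array annotation gives to 1 of these symbols alone was used, 18 of the 12488 probe sets on the array. The cells were E14tg2a embryonic stem cells of clone C2, which carries 2 targeted I-SceI sites, so all arrays come from 1 clone with the same genotype. They were held in phosphate-buffered saline (PBS) with no peroxide (3 arrays), with 100 µM hydrogen peroxide (H2O2) for 15 min (4 arrays, the low dose) or with 5 mM H2O2 for 30 min (5 arrays, the high dose). The cells given H2O2 were then left for 1 h in their usual medium before RNA was prepared. Neither an exposure time nor a recovery time is given for the PBS cells in the labels. Because dose and exposure time differ together between the H2O2 groups, their effects cannot be told apart. No label says that arrays of a group came from separate cultures, so the p-values below measure the spread between these arrays, which may be technical.

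In mouse embryonic stem cells FGF4 is secreted by the cells themselves, binds FGF receptors and activates the RAS-ERK kinase cascade, which moves the cells towards differentiation and, in the early embryo, towards primitive endoderm. LIF acts the other way: it joins its receptor to gp130 (the product of Il6st), the attached JAK kinases phosphorylate STAT3, and STAT3 keeps self-renewal genes on. Both pathways switch on their own brakes, the dual-specificity phosphatases that remove phosphate from MAP kinases and SOCS3, which binds gp130 and blocks the JAKs.

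Promoter sequences of 2 inhibitor genes are shown because each holds a recognition element of a signal-driven transcription factor, and because the levels of these 2 genes stand among the results below. They are the 250 bases before the transcription start, from RefSeq on GRCm38.p6, written 5′ to 3′ on the gene's strand. The capitals mark, in Dusp1, a cyclic AMP response element (TGACGTCA) and, in Socs3, a STAT element (TTCNNNGAA). TGACGTCA and the pattern TTCNNNGAA read the same on either strand, while the middle letters found in Socs3 do not.
Dusp1: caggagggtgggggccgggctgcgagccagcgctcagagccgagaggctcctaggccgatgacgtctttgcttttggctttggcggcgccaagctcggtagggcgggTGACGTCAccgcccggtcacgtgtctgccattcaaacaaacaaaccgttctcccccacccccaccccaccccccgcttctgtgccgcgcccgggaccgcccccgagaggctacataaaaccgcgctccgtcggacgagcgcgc
Socs3: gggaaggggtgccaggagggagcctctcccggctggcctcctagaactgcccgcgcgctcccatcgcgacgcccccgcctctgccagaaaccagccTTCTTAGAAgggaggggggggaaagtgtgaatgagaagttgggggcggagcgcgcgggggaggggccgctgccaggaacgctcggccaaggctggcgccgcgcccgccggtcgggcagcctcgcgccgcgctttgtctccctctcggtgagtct
The Dusp1 window is chr17:26508473-26508722, minus strand, and its element lies from base 143 to base 136 before the start. The Socs3 window is chr11:117969367-117969616, minus strand, and its element, read as TTCTTAGAA, lies from base 154 to base 146 before the start. Of 32851 mouse promoter windows of this length, 1.55% hold the cyclic AMP response element and 7.02% the STAT element. The windows available cover 8 of the 10 genes in 9 windows (Lifr has 2), and each element was found in 1 of the 9. An AP-1 element (TGANTCA), present in 6.75% of all windows, and a CArG box, present in 1.47%, were found in none of the 9. A match here is a description of the letters and not evidence of binding.

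The level of a probe set is given as the deposited MAS5 signal in linear units. Differences are between group means of log2(signal + 10.1), each with the standard error (SE) of a limma model over all 12 arrays, with p-values corrected by Benjamini and Hochberg's procedure across the 8695 probe sets tested; an adjusted p under 0.05 passed. Of the 18 member probe sets 16 were bright enough to be tested, covering 9 of the 10 genes. The only probe set of Fgf5 and the dimmer one of Dusp6 were not.

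Over the 12 arrays, log2 signals correlated with r of 0.958 to 0.978 between arrays of the same group (19 pairs) and 0.921 to 0.957 between arrays of different groups (47 pairs). The cells carried the markers of their label. The summed signal of 9 embryonic stem cell markers ranged over 23156 to 26654 on PBS arrays, 27077 to 33299 under the low dose and 28779 to 34265 under the high dose. The brightest genes weigh most in this sum. Against PBS, 3 of the 9 were higher and 0 lower at the high dose, and 3 were higher and 1 lower at the low dose. At the high dose 2 were higher and 1 lower than at the low dose. Over all genes tested, 5.36% were higher and 6.84% lower at the high dose against PBS. The shares were 11.9% and 12.7% for the low dose against PBS, and 13.8% and 15.2% for the high against the low dose. The 13 tested primitive endoderm markers (of 14 listed) summed to 6291 to 9301 on PBS arrays, 9511 to 10057 under the low dose and 1095 to 1359 under the high dose. Of these 13, 11 were lower at the high dose than in PBS, 6 were higher at the low dose than in PBS, and 12 were lower at the high dose than at the low dose. Dab2, an endocytic adaptor that marks this lineage, averaged on its brightest probe set 577 ± 67.4 in PBS, 1088 ± 91.6 under the low dose and 28.6 ± 13.5 under the high dose (SD, n = 3, 4 and 5). Fibroblast markers, 7 tested of 12 listed, summed to 649 to 1010 in PBS, 745 to 955 under the low dose and 708 to 968 under the high dose. PBS replicate 1 had the highest primitive endoderm sum of its group, 9301 against 6291 and 6555, and the highest fibroblast sum, 1010 against 649 and 668. What part these other cell markers have in any result below was not tested.

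**Figure D1:**
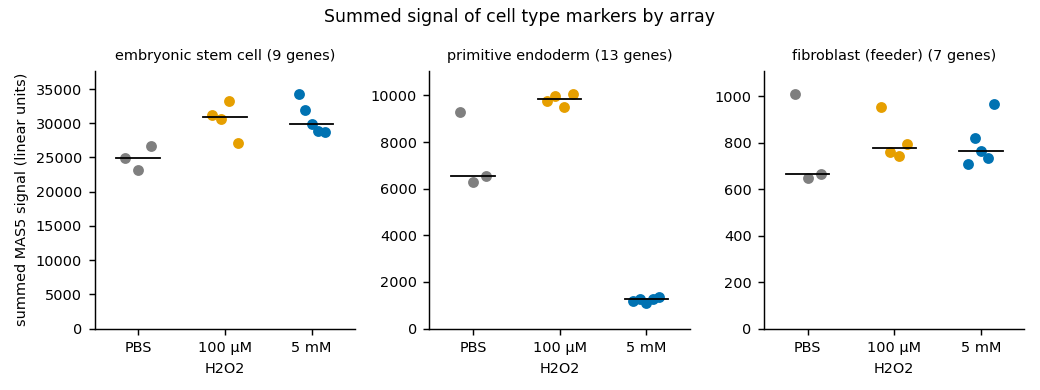
Summed MAS5 signal (linear units) of the markers of embryonic stem cells, primitive endoderm and fibroblasts on each of the 12 arrays, by H2O2 dose; points are arrays and bars are group medians. The primitive endoderm sum at 5 mM (1095 to 1359) lies below that of every PBS and 100 µM array, and 1 PBS array stands above the other PBS arrays in the 2 panels on the right.

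Fgf4 was lower after the high dose than in PBS and than after the low dose, as were Socs3 and Lifr on their brightest probe sets. The other probe sets of Lifr passed in no comparison. The second probe set of Socs3 passed only for the high against the low dose. Fgf17 was lower after the low dose than in PBS and higher after the high dose than after the low dose. After the low dose Dusp1 was higher and Dusp6 lower than in PBS, both calls that several other settings did not keep. No tested probe set of Fgfr1, Il6st or Stat3 passed the test in any comparison. In all, 7 of the 16 probe sets and 6 of the 9 tested genes passed in at least 1 comparison. The share of the whole array that passed in at least 1 comparison was not computed, so these counts cannot be weighed against it. Of 8695 tested probe sets, 1018 passed for the high dose against PBS and 2087 for the low dose against PBS. For the high against the low dose 2385 passed.

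**Figure D2:**
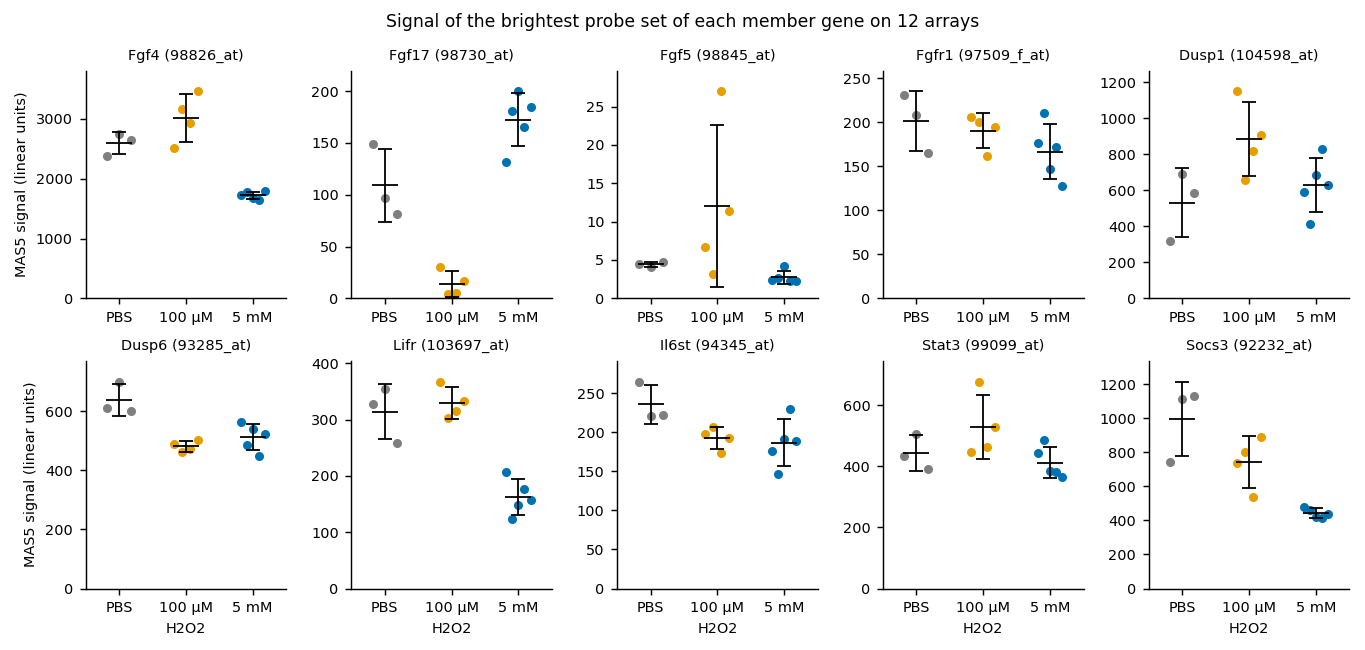
MAS5 signal (linear units, each panel from 0) of the brightest probe set of each of the 10 genes on every array, with the group mean and SD. Fgf4, Lifr and Socs3 at 5 mM lie wholly below the other groups, and Fgf17 at 100 µM (3.77 to 30.7) lies wholly below PBS and 5 mM.

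Between the high dose and PBS, 0 of the 16 probe sets were higher and 3 were lower, while 5.68% of all tested probe sets were higher and 6.03% lower. Of the genes, taken by their brightest probe set, 5.36% were higher and 6.84% lower over the whole array. The median difference of the 16 was -0.29, against 0.01 over all tested probe sets. Between the low dose and PBS, 1 of 16 was higher and 2 were lower, near the 12.8% higher and 11.2% lower over the array (11.9% and 12.7% of genes). The median of the 16 was then -0.06, against 0.08 over all. Between the high and the low dose, 1 was higher and 4 were lower, with 12.8% of all probe sets higher and 14.6% lower (13.8% and 15.2% of genes). The median of the 16 was -0.21, against -0.05 over all. The comparisons with PBS share the PBS arrays, and the comparison of high with low dose is the test of the difference between them. The members were chosen with earlier results of these data known, so setting them beside the whole array is a description and not a test.

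**Figure D3:**
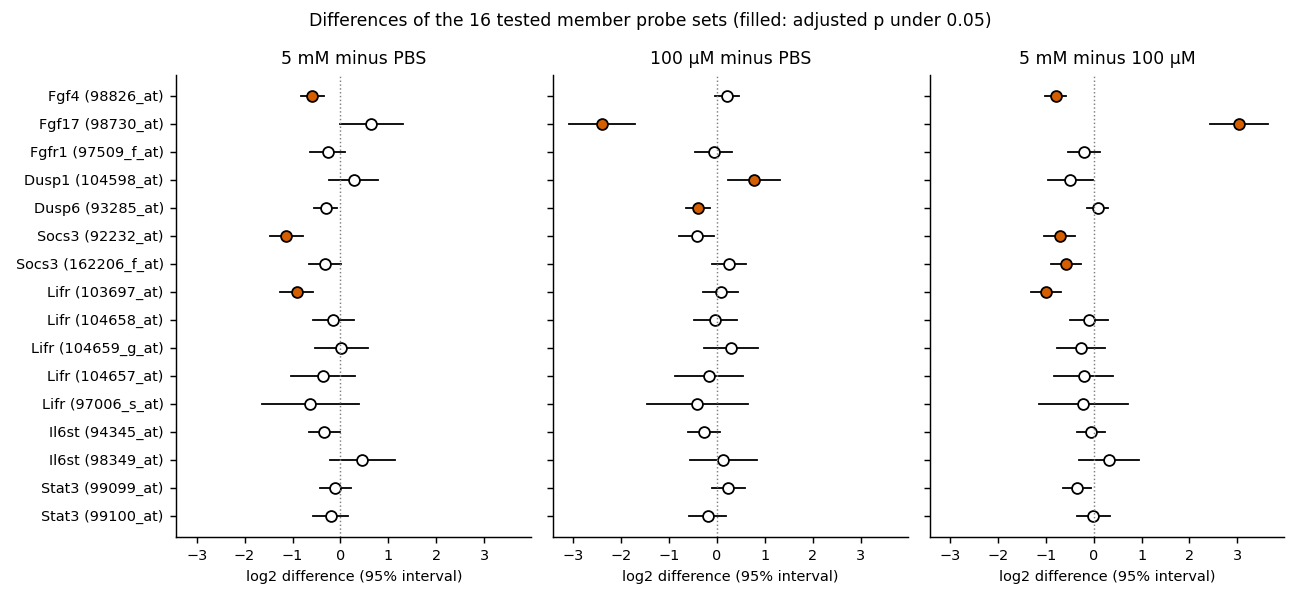
Differences on the log2(signal + 10.1) scale with 95% intervals for the 16 tested probe sets in the 3 comparisons, filled where the adjusted p passed 0.05. Fgf17 has the largest differences, -2.40 for 100 µM minus PBS and 3.04 for 5 mM minus 100 µM, and 4 of the 5 filled points in the right panel lie below 0.

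Among the ligands, Fgf4, the FGF that mouse embryonic stem cells make in quantity and a known target of OCT4 and SOX2, was read by probe set 98826_at. Its signal was 2388, 2745 and 2643 on the PBS arrays. It was 2509.8, 3166, 2934 and 3461 on the low dose arrays. It was 1722, 1782, 1684, 1643 and 1787 on the high dose arrays. Every high dose array was thus below every other array, and the low dose arrays overlapped those in PBS. The group means were 2592 ± 184 in PBS, 3018 ± 401 under the low dose and 1724 ± 62.2 under the high dose (SD, n = 3, 4 and 5). Fgf4 fell at the high dose relative to PBS (log2 difference -0.58 ± 0.12 SE, limma adjusted p = 0.00407). Relative to the low dose it fell 1.74-fold (-0.80 ± 0.11, adjusted p = 4.63e-05). The low dose itself did not pass against PBS (0.21 ± 0.12, adjusted p = 0.224, 95% interval -0.05 to 0.47). In RNA of whole cultures, fewer cells that express a gene and less of its RNA per cell cannot be told apart, here and for every gene below.

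Fgf17, a ligand of the FGF8 subfamily, had the largest change of the set. Probe set 98730_at read 149, 96.8 and 81.6 in PBS, 30.7, 3.77, 5.22 and 17.2 under the low dose and 132, 181, 199.7, 165 and 185 under the high dose. All low dose arrays lay below all others, while PBS replicate 1 lay within the range of the high dose. Fgf17 fell 5.26-fold at the low dose relative to PBS (log2 difference -2.40 ± 0.33, adjusted p = 0.000147). It was 8.22-fold higher at the high dose than at the low dose (3.04 ± 0.29, adjusted p = 1.45e-06). The high dose against PBS did not pass (0.64 ± 0.31, adjusted p = 0.201, 95% interval -0.02 to 1.30). The size, though not the direction or the call, depends on the offset. The low dose signals lie under it (3.77 and 5.22) or not far above it (17.2 and 30.7), so the folds hold for this offset only. With 4 times the offset the differences were -1.46 for low dose against PBS and 1.98 for high against low dose. Of the 2 tested ligands, then, Fgf4 was lowest at the high dose and Fgf17 at the low dose.

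Fgf5, a marker of the primed epiblast that follows the embryonic stem cell state, was too dim for the test. Probe set 98845_at read 4.45, 4.04 and 4.77 in PBS, 6.73, 3.12, 27.0 and 11.4 under the low dose and 2.36, 2.61, 4.28, 2.27 and 2.31 under the high dose. The groups overlapped, and the spread at the low dose came from replicates 3 and 4. Of the other primed epiblast genes listed, 2 of 6 were tested and neither passed in any comparison, with at most 1 at an unadjusted limma p under 0.05 in each.

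Fgfr1, the main FGF receptor of these cells, was read by 97509_f_at, a probe set of a kind that can also bind transcripts of related sequence. Its signal was 231, 209 and 165 in PBS, 207, 200.2, 162 and 194 under the low dose and 176, 211, 147, 172 and 128 under the high dose. The 3 groups overlapped throughout. The difference was -0.26 ± 0.17 for the high dose against PBS (adjusted p = 0.356, 95% interval -0.63 to 0.10) and -0.07 ± 0.18 for the low dose against PBS (adjusted p = 0.822, 95% interval -0.45 to 0.31). For the high against the low dose it was -0.19 ± 0.16 (adjusted p = 0.397).

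Dusp1, the nuclear MAP kinase phosphatase that stress and growth factors induce quickly, had an uneven PBS group. Probe set 104598_at read 318, 689.6 and 587 in PBS, 1150.4, 658, 820.3 and 905 under the low dose and 593, 413, 687, 828 and 628 under the high dose. Low dose replicate 2 lay below PBS replicate 2, so the groups overlapped, and PBS replicate 1 was the lowest of all arrays. Dusp1 was 1.70-fold higher at the low dose than in PBS (log2 difference 0.77 ± 0.25, adjusted p = 0.0385). Without PBS replicate 1 the difference was 0.44 with an adjusted p of 0.206. That array also had the highest primitive endoderm and fibroblast marker sums of its group, and any link of these sums to Dusp1 was not tested. In all, 11 of 22 alternatives lost the call, among them those without PBS replicate 3 (adjusted p = 0.0518), low dose replicate 1 (0.63, adjusted p = 0.108), low dose replicate 3 (adjusted p = 0.0607) or low dose replicate 4 (adjusted p = 0.0686), and that with arrays scaled to a common median (0.58, adjusted p = 0.0901). The high dose did not pass against PBS (0.28 ± 0.24, adjusted p = 0.508) or against the low dose (-0.49 ± 0.22, adjusted p = 0.119). The cyclic AMP response element printed above belongs to this gene's promoter.

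Dusp6, the cytoplasmic phosphatase that acts on ERK and is induced by it, was read by 93285_at at 611, 701 and 602 in PBS, 488, 464, 471 and 502 under the low dose and 563, 485, 541, 450.3 and 524 under the high dose. All arrays of either dose were below all PBS arrays, and those of the 2 doses overlapped each other. Dusp6 fell 1.32-fold at the low dose relative to PBS (log2 difference -0.40 ± 0.12, adjusted p = 0.0236). The high dose did not pass against PBS (-0.31 ± 0.11, adjusted p = 0.0893, 95% interval -0.55 to -0.07; with array weights adjusted p = 0.0406) or against the low dose (0.09 ± 0.10, adjusted p = 0.584). The low dose call was lost without PBS replicate 2 (-0.33, adjusted p = 0.114) and without low dose replicate 2 (adjusted p = 0.0549), and with replicate number as a block (adjusted p = 0.0759). The other probe set, 161536_r_at, stayed between 1.09 and 23.2 on all arrays and was not tested.

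On the LIF side, Lifr encodes the receptor chain that binds LIF. Its brightest probe set, 103697_at, read 329, 354 and 259 in PBS, 368, 303, 315 and 334 under the low dose and 207, 123, 148, 177 and 158 under the high dose. All high dose arrays were below all others, and PBS and low dose overlapped. By this probe set Lifr fell 1.89-fold at the high dose relative to PBS (log2 difference -0.92 ± 0.16, adjusted p = 0.00195) and 1.99-fold relative to the low dose (-0.99 ± 0.15, adjusted p = 0.000149). The low dose did not pass against PBS (0.08 ± 0.17, adjusted p = 0.786, 95% interval -0.29 to 0.44).

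The other 4 probe sets of Lifr were dimmer, with signals from 2.96 to 88.9, and none passed in any comparison. For the high dose against PBS, 104658_at differed by -0.15 (adjusted p = 0.695, 95% interval -0.57 to 0.28) and 104659_g_at by 0.02 (adjusted p = 0.971, 95% interval -0.52 to 0.57). Both intervals leave out the -0.92 of the brightest probe set. The units added before log2 understate changes of dim probe sets, so this cannot settle whether these probe sets differ from the brightest. For 104657_at the difference was -0.37 (95% interval -1.04 to 0.30) and for 97006_s_at -0.63 (95% interval -1.64 to 0.38), intervals that take in -0.92. The fall of Lifr thus rests on 1 of its 5 probe sets, and which transcripts each one reads is not given in the sources used here.

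**Figure D4:**
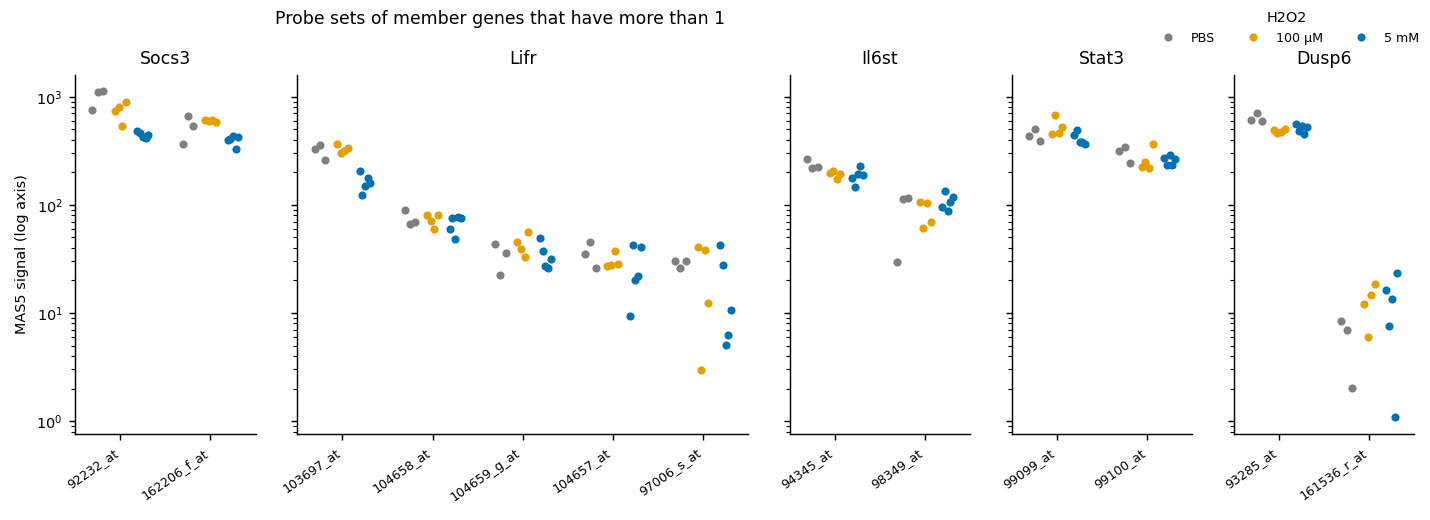
MAS5 signal (log axis) on every array for each probe set of the 5 genes that have more than 1, with PBS, 100 µM and 5 mM arrays side by side. The 5 mM arrays stand below the others in Lifr 103697_at (123 to 207) and Socs3 92232_at (415 to 481), while the dimmer Lifr probe sets overlap between groups.

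Il6st encodes gp130, the signalling chain that Lifr shares with other cytokine receptors. Probe set 94345_at read 265, 220.2 and 222 in PBS, 198, 207, 173 and 193 under the low dose and 177, 146, 192, 229 and 188 under the high dose. The low dose arrays lay below those in PBS, and the high dose overlapped both groups. Neither dose passed against PBS (-0.33 ± 0.15, adjusted p = 0.174, for the high dose and -0.28 ± 0.16, adjusted p = 0.227, for the low dose). The second probe set, 98349_at, read 29.9, 113 and 116 in PBS, 61.4 to 107 under the low dose and 88.0 to 133 under the high dose. PBS replicate 1 was again the lowest array. The high dose differed from PBS by 0.46 with all arrays (adjusted p = 0.389) and by -0.09 without PBS replicate 1, so this probe set gives no direction.

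Stat3, the transcription factor that carries the LIF signal, had overlapping groups on both of its probe sets. Probe set 99099_at read 433, 507 and 392 in PBS, 448, 677, 463 and 528 under the low dose and 444, 487, 383, 381 and 365 under the high dose. The high dose differed from PBS by -0.11 ± 0.15 (adjusted p = 0.705, 95% interval -0.43 to 0.22). The low dose differed from PBS by 0.24 ± 0.16 (adjusted p = 0.309). The high dose against the low dose gave -0.34 ± 0.14 (adjusted p = 0.0811), which passed only without high dose replicate 2 (adjusted p = 0.0487). The other probe set, 99100_at, gave -0.20, -0.20 and -0.01 in the same 3 comparisons, with adjusted p of 0.493, 0.465 and 0.983.

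Socs3, the STAT3-induced inhibitor of the receptor complex, was lower at the high dose. Probe set 92232_at read 746, 1113 and 1133 in PBS, 736, 804, 539 and 892 under the low dose and 481, 459, 422, 415 and 439 under the high dose. All high dose arrays were below all others, and PBS replicate 1 lay among the low dose arrays. Socs3 fell 2.19-fold at the high dose relative to PBS (log2 difference -1.13 ± 0.16, adjusted p = 0.000311) and 1.64-fold relative to the low dose (-0.71 ± 0.15, adjusted p = 0.00241). The low dose differed from PBS by -0.42 ± 0.17 and did not pass (adjusted p = 0.0896). That comparison passed without PBS replicate 1 (-0.61, adjusted p = 0.0176), without low dose replicate 4 (-0.51, adjusted p = 0.0482), with arrays scaled to a common median (-0.61, adjusted p = 0.0157) and with array weights (-0.57, adjusted p = 0.0107).

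The second Socs3 probe set, 162206_f_at, which may also bind related transcripts, read 363, 656 and 532 in PBS, 614, 597, 613 and 579 under the low dose and 402, 409, 437, 331 and 428 under the high dose. The high dose arrays were below all low dose arrays and overlapped PBS replicate 1. Here too the high dose was lower than the low dose, 1.49-fold (-0.58 ± 0.15, adjusted p = 0.00734). Against PBS the high dose did not pass (-0.32 ± 0.16, adjusted p = 0.206), although it did without PBS replicate 1 (-0.55, adjusted p = 0.0188) and with array weights (-0.49, adjusted p = 0.0195). For the low dose against PBS the probe sets had opposite signs, 0.25 on 162206_f_at (adjusted p = 0.293) and -0.42 on 92232_at, and neither passed.

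For each member probe set that passed a test, the genes with the most similar profile over the 12 arrays were named by Pearson's r of the log2 values, as a description in which the points share arrays and groups. Nearest to Fgf4 were Bin1 (r = 0.958), Tmem43 (0.953) and Atg13 (0.952). Nearest to Fgf17 were Strbp (0.979), Ina (0.975) and Cdkn1c (0.968). Cdkn1c, a cyclin-dependent kinase inhibitor, averaged 428 in PBS, 42.8 under the low dose and 655 under the high dose, the same order as Fgf17. Nearest to Lifr 103697_at were Atp13a3 (0.958), Itga6 (0.953) and Eloa (0.940). For Socs3 they were Mlx (0.944), Cyp2s1 (0.939) and Atp5d (0.938) on 92232_at, and AU040320 (0.924), Gabarapl2 (0.903) and Slc22a5 (0.903) on 162206_f_at. Nearest to Dusp1 were Asah1 (0.934), Tcea1 (0.925) and Ezr (0.918). Nearest to Dusp6 were Lman2 (0.906), Tmem199 (0.885) and Dhrs7 (0.885).

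The other genes of both pathways were taken from 11 lists of 129 genes in all, of which 71 were tested. These lists, too, were chosen with earlier results of these data known. At the high dose 11 of the 71 were higher and 4 lower than in PBS, where 5.36% and 6.84% of all genes were. At the low dose 16 were higher and 8 lower than in PBS, beside 11.9% and 12.7% of all genes. At the high dose 14 were higher and 12 lower than at the low dose, beside 13.8% and 15.2% of all genes. Their median differences were -0.02, 0.08 and -0.03, against -0.01, 0.04 and -0.04 over all 6414 genes tested. Of the calls named below, those of a gene's brightest probe set that other settings lost have the number of such settings, out of 22, beside them.

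Of 3 other FGF ligands tested, Fgf18 and Fgf15 were called, but both were dim. The call of Fgf18 for the high dose against PBS was lost under 12 of 22 alternatives. Fgf18 ranged over 7.82 to 26.8 in PBS, 4.03 to 12.7 under the low dose and 26.4 to 63.6 under the high dose. Fgf15, an embryonic FGF, ranged over 7.32 to 54.6, 6.39 to 11.6 and 17.7 to 56.6 in the same groups. Their low dose means, 7.19 for Fgf18 and 8.23 for Fgf15, lie under the 10.1 units added before log2, and Fgf18 came above the brightness filter through the high dose arrays. No size of change is therefore given for either, and their calls, which stand in the counts over the 71 genes, support nothing here. The 2 other FGF receptors tested were higher at the low dose than in PBS on their brightest probe sets. Fgfr2 averaged 96.4 ± 13.6 in PBS, 233 ± 75.5 under the low dose and 90.1 ± 25.5 under the high dose on 93090_at (low dose against PBS 1.14, adjusted p = 0.00535). Its other tested probe set, 93091_s_at, did not pass there (0.37, adjusted p = 0.55, 95% interval -0.50 to 1.25). Fgfr3 averaged 33.2 ± 7.26, 99.4 ± 18.8 and 70.2 ± 10.1 in the same groups, and exceeded PBS after the high dose (0.90, adjusted p = 0.00989) as well as the low dose (1.34, adjusted p = 0.000444).

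Between receptor and ERK, 12 relay genes were tested and at the high dose 0 passed against PBS, with 1 at an unadjusted limma p under 0.05. Over all genes 5.36% were higher and 6.84% lower there, so 0 of 12 is not far from the array share. Against PBS at the low dose, 1 was higher, the adaptor Grb2 (0.53, adjusted p = 0.0448). That call was lost under 12 of 22 alternatives, namely without PBS replicate 1 or 2 (0.38 without 2, adjusted p = 0.203), low dose replicate 2, 3 or 4, or high dose replicate 1 or 3, and under 5 other settings, common median scaling among them (0.34, adjusted p = 0.251). Grb2 was lower at the high than at the low dose (-0.80 ± 0.16, adjusted p = 0.00145). In that comparison 3 relay genes were higher and 2 lower, beside 13.8% and 15.2% of all genes. The other adaptor called there, Gab1, was higher on its brighter probe set (0.50, adjusted p = 0.00982) and did not pass on the other (0.55, adjusted p = 0.0855). The kinase Araf was lower (-0.70, adjusted p = 0.00611). The remaining relay genes called higher there, Ptpn11 and Braf, were dim, with low dose means of 12.1 and 14.5 signal units. These means lie close to the offset added before log2. The calls were lost under 6 of 22 alternatives for Ptpn11 and 3 of 22 for Braf. No size of change is therefore given for either, and their calls, which stand in the counts, support nothing here. Of 8 other feedback inhibitors of ERK, 0 passed at the high dose against PBS, again not far from the array share, with 1 at an unadjusted limma p under 0.05. Dusp9, an ERK phosphatase of embryonic stem cells, averaged 553 ± 68.5 in PBS, 179.5 ± 33.2 under the low dose and 505 ± 15.99 under the high dose. It fell 2.99-fold at the low dose relative to PBS (-1.58 ± 0.14, adjusted p = 4.27e-06) and was higher at the high than at the low dose (1.46 ± 0.13, adjusted p = 6.9e-07). A dimmer Dusp9 probe set, 162065_r_at, did not pass (0.53 for the low dose against PBS, adjusted p = 0.125). Dusp16, a phosphatase of JNK and p38, had the other order, 116 ± 29.6, 208 ± 53.4 and 82.0 ± 12.2, and was lower at the high than at the low dose (-1.22 ± 0.19, adjusted p = 0.000199).

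Of 13 transcription factor genes of the ERK response, 6 were higher and 1 lower at the high dose against PBS, beside 5.36% and 6.84% of all genes. At the low dose 5 were higher and 3 lower, beside 11.9% and 12.7% of all genes. Stress kinases are known to induce several of these 13 genes too. Fos, an AP-1 subunit, averaged 80.8 ± 37.9 in PBS, 743 ± 109.7 under the low dose and 485 ± 108 under the high dose. It was higher than in PBS at the high dose (2.51 ± 0.25, adjusted p = 6.22e-06) and at the low dose (3.14 ± 0.26, adjusted p = 2.78e-06). Fosb, another AP-1 subunit, was higher at the high dose (0.95, adjusted p = 0.00401) and the low dose (1.197, adjusted p = 0.000533). Egr1, a zinc finger factor of the immediate early response, was higher at the low dose (1.11, adjusted p = 0.000577). Myc, by contrast, fell at the low dose relative to PBS (-1.36 ± 0.23, adjusted p = 0.000625), and so did Etv4, an ETS factor downstream of FGF (-1.02 ± 0.16, adjusted p = 0.000418). On a second Etv4 probe set, 161842_r_at, the low dose difference was 0.60 and did not pass (adjusted p = 0.0514).

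Of 8 JAK kinases and STAT factors, 1 was higher and 0 lower at the high dose against PBS, beside 5.36% and 6.84% of all genes. At the low dose 1 was higher and 1 lower, beside 11.9% and 12.7% of all genes. Stat6, which carries interleukin-4 signals, averaged 508 ± 138 in PBS, 262 ± 41.7 under the low dose and 488 ± 51.6 under the high dose (low dose against PBS -0.90 ± 0.18, adjusted p = 0.00237). Among 10 other inhibitors of JAK-STAT signalling, Socs2 moved opposite to Socs3. Socs2 averaged 558 ± 81.3 in PBS, 575 ± 111 under the low dose and 914 ± 76.3 under the high dose, and was higher at the high dose than in PBS (0.71 ± 0.14, adjusted p = 0.00484) and than at the low dose (0.67 ± 0.13, adjusted p = 0.00128). The single other gp130 ligand tested, Ctf1, and the other receptor chains tested, Il6ra and Cntfr, did not pass in any comparison, and 0 of them had an unadjusted limma p under 0.05.

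Genes known as LIF-STAT3 targets in embryonic stem cells, 12 of them without Socs3, did not move as a block. At the high dose 2 were higher and 2 lower than in PBS, beside 5.36% and 6.84% of all genes. At the low dose 5 were higher and 4 lower than in PBS, beside 11.9% and 12.7% of all genes. Klf4, a self-renewal factor directly downstream of STAT3, averaged 1201 ± 171 in PBS, 3379.7 ± 241 under the low dose and 1029 ± 122 under the high dose. It was 2.81-fold higher at the low dose than in PBS (1.49 ± 0.13, adjusted p = 3.64e-06) and lower at the high than at the low dose (-1.71 ± 0.12, adjusted p = 5.78e-08). Gbx2, another STAT3 target, averaged 477 ± 60.5, 113 ± 22.4 and 322 ± 58.5 in the same groups and fell 3.995-fold at the low dose relative to PBS (-1.998 ± 0.18, adjusted p = 3.64e-06). Its lower level at the high dose (-0.56, adjusted p = 0.045) was lost under 14 of 22 alternatives: without any 1 of the PBS replicates (-0.52 without replicate 3, adjusted p = 0.141), low dose replicate 2 or 4, or high dose replicate 1, 2, 3 or 5, and under 5 other settings. Tfcp2l1, a STAT3 target that sustains self-renewal, was higher than in PBS at the high dose (0.51, adjusted p = 0.0167) and with the low dose (0.51, adjusted p = 0.0119) on its brighter probe set, and on the dimmer one by 2.42 (adjusted p = 0.000618) and 1.47 (adjusted p = 0.0145). On the brighter probe set the high dose call was lost under 4 of 22 alternatives and the low dose call under 3. Both were lost without PBS replicate 2 (0.43 each, adjusted p = 0.0958 and 0.0629), without PBS replicate 3 (0.43 and 0.42, adjusted p = 0.0907 and 0.0626) and with common median scaling, and the high dose call also with replicate number as a block (adjusted p = 0.0646). The dimmer probe set was not run under the alternatives. Sgk1, a kinase induced by many stresses and hormones, was lower at the high than at the low dose (-0.95 ± 0.12, adjusted p = 3.75e-05).

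**Figure D5:**
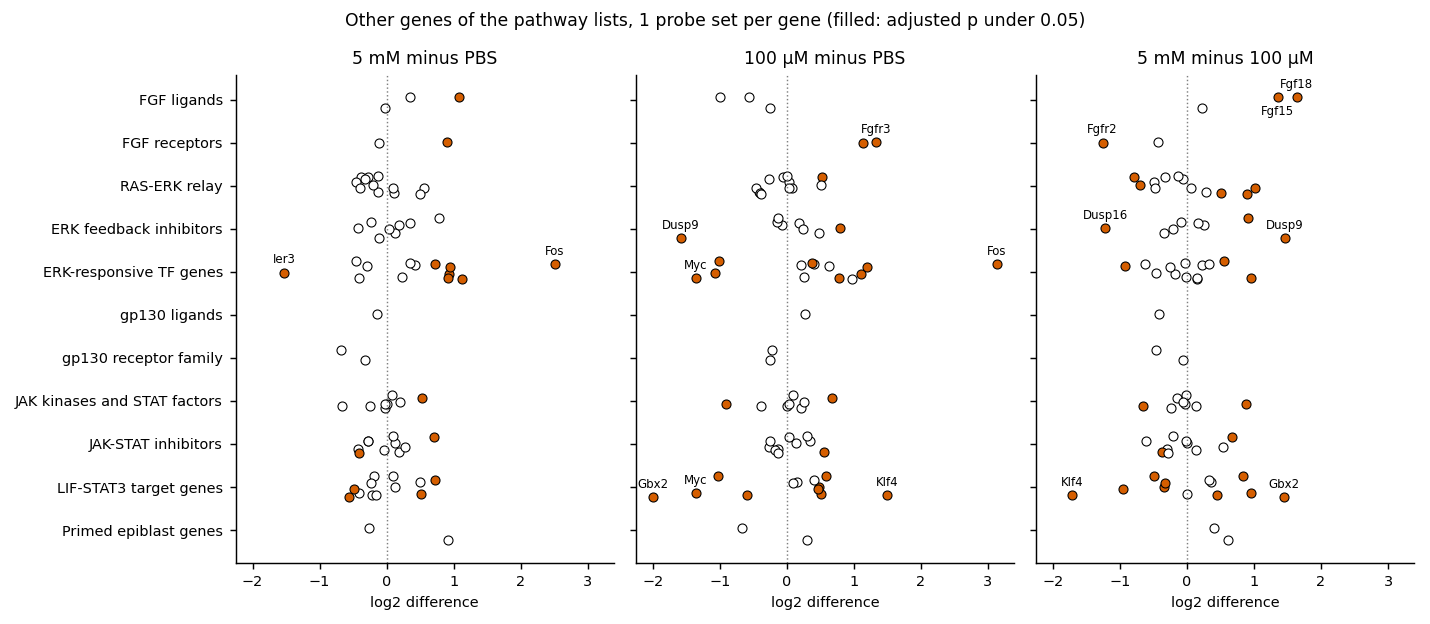
Differences (log2 scale) of the other genes of 11 pathway lists in the 3 comparisons, 1 probe set per gene, filled where the adjusted p passed 0.05. Fos is the point farthest right at 5 mM (2.51) and at 100 µM (3.14) against PBS, and Dusp9, Gbx2 and Klf4 lie on opposite sides of 0 in the middle and the right panel.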

How the data were processed

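RNA from 12 mouse embryonic stem cell samples was measured on Affymetrix MG_U74Av2 arrays, with groups and replicate numbers taken from the sample titles. The deposited values are an intensity per probe set and array on a linear scale, MAS5 signals per the submitters' processing notes. No MAS5 version, scaling target or detection call is given in the sources used here. The deposited scaling was kept, as 2% trimmed means of the arrays lay within 0.0195%. Precision is limited by how many arrays each group has.

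Before taking log2, 10.1 units were added to each signal, the 20th percentile of all values, which understates changes of dim probe sets. Control probe sets (66) were left out, and those above the 30th percentile of mean log2 signal were tested, 8695 of 12488. A group-means model over the 12 arrays was fitted in limma 3.58.1 (R 4.3.3), with eBayes and a variance trend; tests were two-sided, with Benjamini-Hochberg adjustment. The fit was tested on simulated data. Genes were named from the platform annotation where a probe set has 1 symbol (10855), of which 10839 were matched by Entrez number to RefSeq genes of GRCm38.p6, used for names and promoter sequences only. For gene counts the brightest probe set stood for each gene.

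All member probe sets were described. From each pathway list, up to 3 genes per direction and comparison with the largest difference past the threshold could be named. The other tested probe sets of such a gene stand beside it. Ctf1, Il6ra, Cntfr and the levels of Cdkn1c, Lef1 and Sox3 are given as further values. For each member probe set past a test, the 3 most similar genes were named. Members and lists were chosen with earlier results of these data known. There were 22 alternatives: scaling, offset, filter, variance trend, array weights, samples in the fit, replicate number as a block, and each array left out in turn.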

Additional observations from a re-analysis of the deposited data

Results flagged for a closer look

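Of 36 groups of 4 or 5 arrays checked over the 18 probe sets, 2 held an array far from the others of its group, and chance alone gives about 1 in 20. On the dim Fgf5 probe set 98845_at, high dose replicate 3 read 4.28 signal units, while the other high dose arrays read 2.27 to 2.61. On Lifr 104657_at, low dose replicate 3 read 37.4, while the other low dose arrays read 26.9 to 28.2. Neither probe set passed a test.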

How the results depend on the processing

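No called difference of a member probe set changed sign under any of the 22 alternatives. Of 1047 values of member probe sets under them, 1025 stayed on the same side of the threshold, 8 passed newly and 14 lost their call, 11 of them Dusp1 and 3 Dusp6 at the low dose. Beside those in the report, Dusp1 lost its call without the filter (adjusted p = 0.0566), without the variance trend (0.0705), with array weights (0.53, 0.0755) and with only the groups compared (0.0529). The 31 changes of sign were all in differences called neither way, at most 0.455 in size. With array weights, 5 member probe sets passed for the high dose against PBS, Dusp6 and Socs3 162206_f_at being added, and 1655 probe sets passed over the array, against 1018. Deviations of the 10 same-numbered pairs correlated with r of -0.178 to 0.148, 2 of them over 0.1. With so few pairs this cannot settle whether replicate numbers pair the arrays. With replicate number as a block, 1 member probe set passed for the low dose against PBS, against 3 without it (Dusp1, adjusted p = 0.104, and Dusp6, adjusted p = 0.0759, were lost), and 597 probe sets passed for the high dose against PBS. Leaving out 1 array gave, for high dose against PBS, low dose against PBS and high against low dose, 3 to 4, 2 to 3 and 5 to 6 member probe sets, and 490 to 1012, 1425 to 2141 and 1994 to 2553 over the array; the lowest, 490, was without PBS replicate 2, and 599 passed without PBS replicate 3. Scaling to a common median moved the median of all probe sets by -0.17 for the low dose against PBS and by 0.105 for high against low dose (net of the new median, Dusp1 at the low dose stood at 0.67 and Socs3 92232_at at -0.52), and the share of calls that were higher from 48.5% to 33.6% for high dose against PBS, 53.2% to 27.7% for low dose against PBS and 46.7% to 61.8% for high against low dose. Of 55 pathway calls, 34 were kept under all 22 alternatives. Few PBS arrays and dim signals limit what can be seen for Fgf5 and the dimmer Lifr and Dusp6 probe sets.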
